A study of Mus musculus with 53 samples.

Results

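The 9 genes described here encode enzymes that make and turn over the lipids of myelin, namely Degs1, Cers2, Elovl1, Elovl7, Fa2h, Ugt8a, Gal3st1, Galc and Aspa. They were chosen by name, and all 9 were found among the 12372 genes of the count table. Their levels were followed over 4 brain regions, and in each region SCA3 mice were compared with wild-type mice.

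Myelin is unusually rich in galactosylceramide and sulfatide, a pair of lipids built in oligodendrocytes from ceramide. Ceramide receives its fatty acid, often a very long or 2-hydroxylated one, before a galactose is attached to it, and part of the product is then sulfated. The lipids are broken down again in lysosomes, and acetate released from neuronal N-acetylaspartate is one source of carbon for new fatty acids.

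The libraries came from male mice of 74 to 77 weeks of age. The SCA3 group was hemizygous MJD84.2, a line that models spinocerebellar ataxia type 3 by carrying the complete human ATXN3 gene, its CAG repeat expanded and under its own human promoter, in every tissue and beside the intact mouse Atxn3 gene. The wild-type C57BL/6 animals lacked the transgene, and the crosses that gave the animals paired hemizygous with wild-type parents. All SCA3 mice belong to this single transgenic line, and every library is bulk tissue of 1 animal, so that fewer oligodendrocytes and less RNA per oligodendrocyte cannot be told apart. There were 8 wild-type and 6 SCA3 libraries of brainstem, 7 and 6 of cerebellum, 7 and 6 of cortex, and 8 and 5 of striatum.

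The 53 libraries held between 31680939 and 76703758 counts, and the member with the fewest reads in any library still had 212. RNA integrity (RIN, on a scale where higher is more intact) was 7.24 ± 0.42 in wild-type brainstem (SD, n = 8) and 7.78 ± 0.26 in SCA3 brainstem (n = 6), and ran from 5.7 to 9.0 in striatum. A set of 9 thalamic markers separated the striatal libraries. Their summed level, in CPM, the usual read count relative to the library total, here scaled by TMM (trimmed mean of M-values), ran from 159 to 2405 CPM in wild-type striatum and from 158 to 418 CPM in SCA3 striatum, with 6 of the 9 called lower in SCA3 there, while in brainstem it was 667 to 1059 and 655 to 1071 CPM. The same markers summed to 1498 to 1888 CPM in cerebellum, so they are not particular to thalamus there. In brainstem 4 libraries had sums of 996 to 1071 CPM (wild-type mice 7267055 and 9083373, SCA3 mice 9083514 and 9083515) and the other 10 had 655 to 870 CPM. A set of 7 markers of striatal projection neurons summed to between 1597 and 7309 CPM in wild-type striatum and between 4359 and 6502 CPM in SCA3 striatum, against at most 274 CPM in brainstem and 275 CPM in cerebellum. Cortex held 417 to 2923 CPM of them, which overlaps the lowest wild-type striatal libraries. All 10 structural myelin genes looked for were in the table, and they summed to at least 2692 CPM in every library of every region. Markers of the Schwann cells of nerve roots were not among the genes analysed here (0 of 4). The human transgene was not analysed here, so it could not serve as a check of the labels, and mouse Atxn3 differed by 0.01, 0.11, 0.14 and 0.33 on the log2 scale in brainstem, cerebellum, cortex and striatum (called in striatum, FDR = 0.000116).

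In wild-type mice the myelin lipid enzymes were most abundant in brainstem, followed by striatum, with cerebellum and cortex lowest. This order held for 8 of the 9, and Galc was the exception. Per kilobase of exon, a scale on which genes can be set side by side, the highest brainstem levels belonged to Cers2 at 59.4 ± 8.55 (SD, n = 8), Ugt8a at 58.6 ± 15.1 and Degs1 at 55.9 ± 5.42 CPM per kilobase. Fa2h at 44.3 ± 10.5 and Aspa at 35.5 ± 7.07 CPM per kilobase came next. Elovl1 (16.2 ± 2.99), Elovl7 (15.0 ± 4.12), Gal3st1 (12.3 ± 2.68) and Galc (10.04 ± 0.84 CPM per kilobase) were the least abundant. Cers2, Ugt8a and Degs1 lay within 1 SD of each other.

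**Figure D1:**
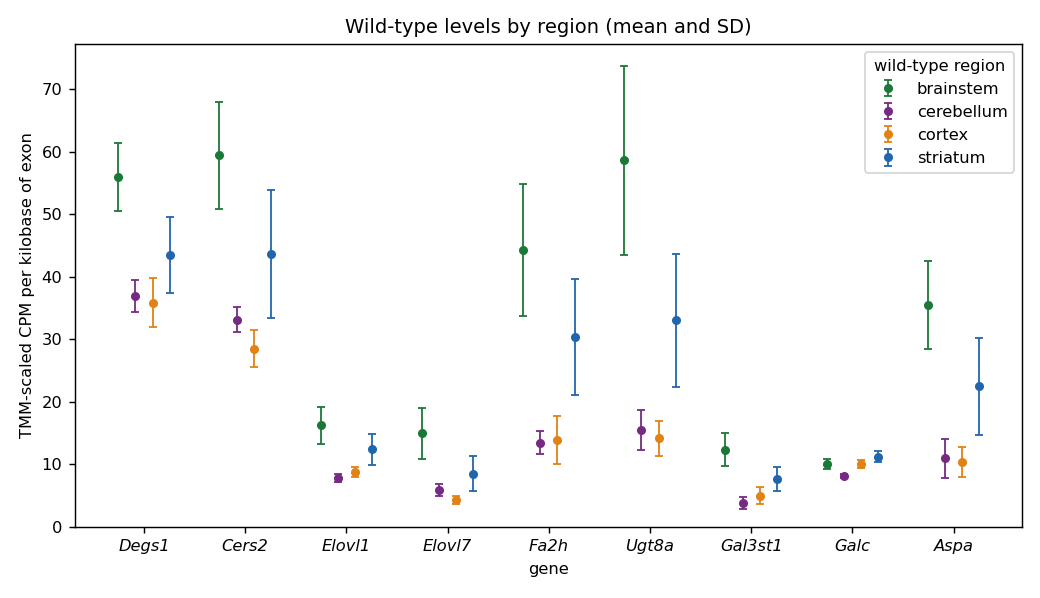
Wild-type levels of the 9 enzymes in TMM-scaled CPM per kilobase of exon (vertical axis) for each gene (horizontal axis), with 1 point per region showing the mean and bars showing the SD over 8 brainstem, 7 cerebellum, 7 cortex and 8 striatum libraries. Brainstem is highest for every gene except Galc, and cerebellum and cortex lie close together.

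Tested between wild-type regions, all 9 genes differed between brainstem and cerebellum, where 72.6% of all genes were called at a false discovery rate (FDR) below 0.05, and 8 of 9 between brainstem and cortex (65.4% of all genes). The log2 difference of brainstem over cerebellum was widest for Ugt8a at 1.92 (SE 0.19) and narrowest for Galc at 0.30 (SE 0.06). Brainstem also differed from striatum for all 9 (64.2% of all genes), with 8 higher in brainstem by 0.36 to 0.83 on the log2 scale and Galc lower, at -0.16 (SE 0.06, FDR = 0.00945 by the edgeR likelihood ratio test). All 9 were higher in striatum than in cerebellum (69.5% of all genes) and than in cortex (34.4% of all genes). Against cerebellum the Elovl7 call was lost without wild-type mouse 7267059 (-0.35, FDR = 0.0586), and without the 3 striatal libraries richest in thalamic markers those of Elovl7 (-0.31, FDR = 0.106) and Degs1 (-0.16, FDR = 0.0603) were lost. Since such large shares of all genes differed, the counts say little about these enzymes in particular. The brainstem over cortex difference stood between the 51.0 percentile of all genes for Galc and the 99.4 percentile for Ugt8a (2.05, SE 0.19), with Degs1 at 90.4.

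Cerebellum and cortex were neighbours that mostly did not separate. A call was made for 3 of 9 genes (69.7% of all genes), with Elovl7 higher in cerebellum by 0.44 (SE 0.18, FDR = 0.0195), and Gal3st1 lower by 0.38 (SE 0.17, FDR = 0.037) and Galc lower by 0.32 (SE 0.06, FDR = 1.35e-06). The Elovl7 call was lost without wild-type mouse 7267058 (0.37, FDR = 0.062) and the Gal3st1 call without any 1 of wild-type mice 7267059, 9083371, 9083373 and 9083375 (FDR up to 0.141), whereas the Galc call held. For Galc, the lysosomal hydrolase, the wild-type means were 43.0 ± 3.25 CPM in striatum, 38.7 ± 2.48 in cortex, 38.5 ± 3.20 in brainstem and 31.1 ± 1.49 in cerebellum, so that its highest mean was only 1.38 times its lowest, against 4.14 times for Ugt8a between brainstem and cortex. The Galc step between striatum and cortex (FDR = 0.036) was itself lost without any 1 of 5 wild-type mice (7267055, 7267058, 9082857, 9083371 and 9083373, FDR between 0.0534 and 0.135).

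Between genotypes the enzymes did not move as a block. Ugt8a and Aspa were lower in SCA3 brainstem and striatum, Fa2h was lower in SCA3 striatum, and no member was called higher in any region. Degs1, Cers2, Gal3st1 and Galc stayed within 0.25 of 0 on the log2 scale in all 4 regions. In brainstem 2 of 9 members were called (1.92% of all genes), both lower. In striatum 3 of 9 were called, all lower (7.54% of all genes). In cerebellum (0.0647% of all genes) and in cortex (0.154% of all genes) edgeR called 0 of 9, as did DESeq2 and the quasi-likelihood F test. At an unadjusted p below 0.05 there were 5 members in brainstem, 3 in striatum, 2 in cerebellum and 0 in cortex, where 1640, 2874, 205 and 503 of all 12372 genes had such a p. The share in striatum was thus not far from that of all genes.

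**Figure D2:**
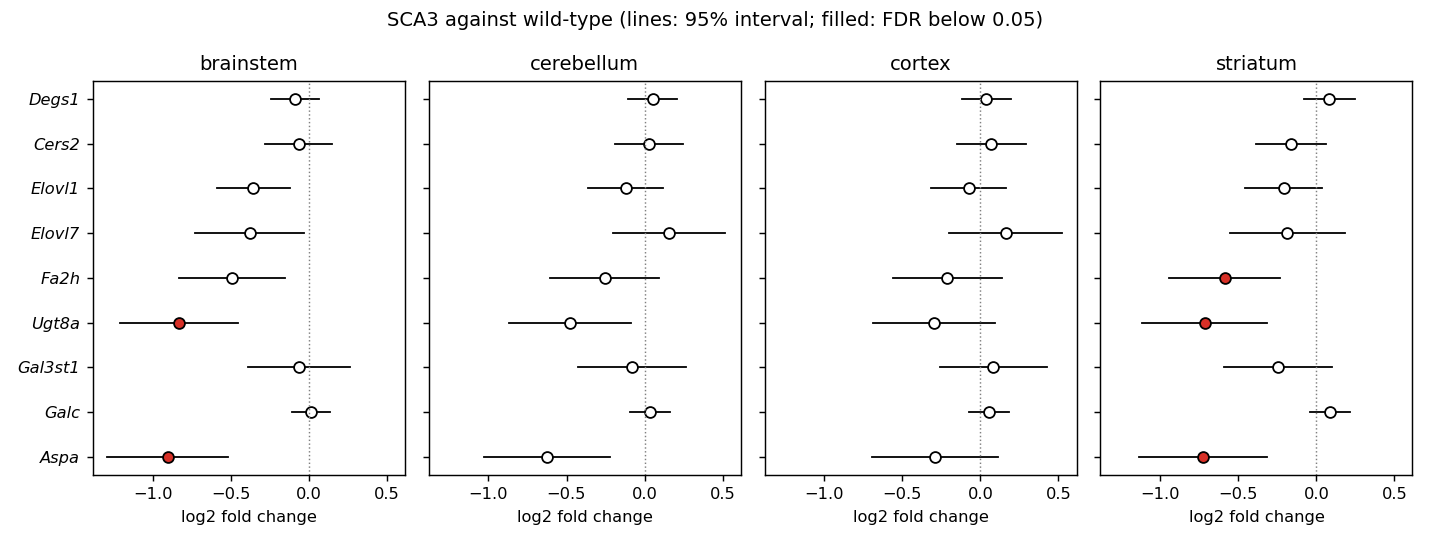
Log2 fold change of SCA3 over wild-type (horizontal axis) for each enzyme (rows) in 4 regions (panels), with lines for the 95% interval from the model and filled points for FDR below 0.05. Ugt8a and Aspa lie furthest to the left in every region, filled in brainstem and striatum, while Degs1, Cers2, Gal3st1 and Galc lie near 0.

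The median log2 fold change of the 9 was -0.35 in brainstem, -0.21 in striatum, -0.08 in cerebellum and 0.04 in cortex, where that of all genes was 0.00 in each region. Negative values were seen for 8 of 9 members in brainstem, 7 in striatum, 5 in cerebellum and 4 in cortex, against 49.1%, 51.0%, 52.8% and 51.2% of all genes. Tested over the 4 regions together, 3 of 9 members differed by genotype (4.73% of all genes), namely Aspa (FDR = 3.01e-06), Ugt8a (FDR = 2.46e-05) and Fa2h (FDR = 0.0104). For Fa2h this combined call was lost without any 1 of SCA3 mice 7267054, 7267056, 9083514 and 9083515 (FDR = 0.0577 to 0.0984). The test treats the libraries of 1 mouse as independent, and with the mouse as a block in limma-voom the Fa2h call was lost (FDR = 0.14), as it was without the block (FDR = 0.0507), leaving 2 calls. A genotype effect that depended on region was called by edgeR for 0 of 9 members (0.218% of all genes), with 0 at an unadjusted p below 0.05 and 0 by DESeq2, so the larger values in brainstem and striatum were not shown to exceed those in cerebellum and cortex.

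**Figure D3:**
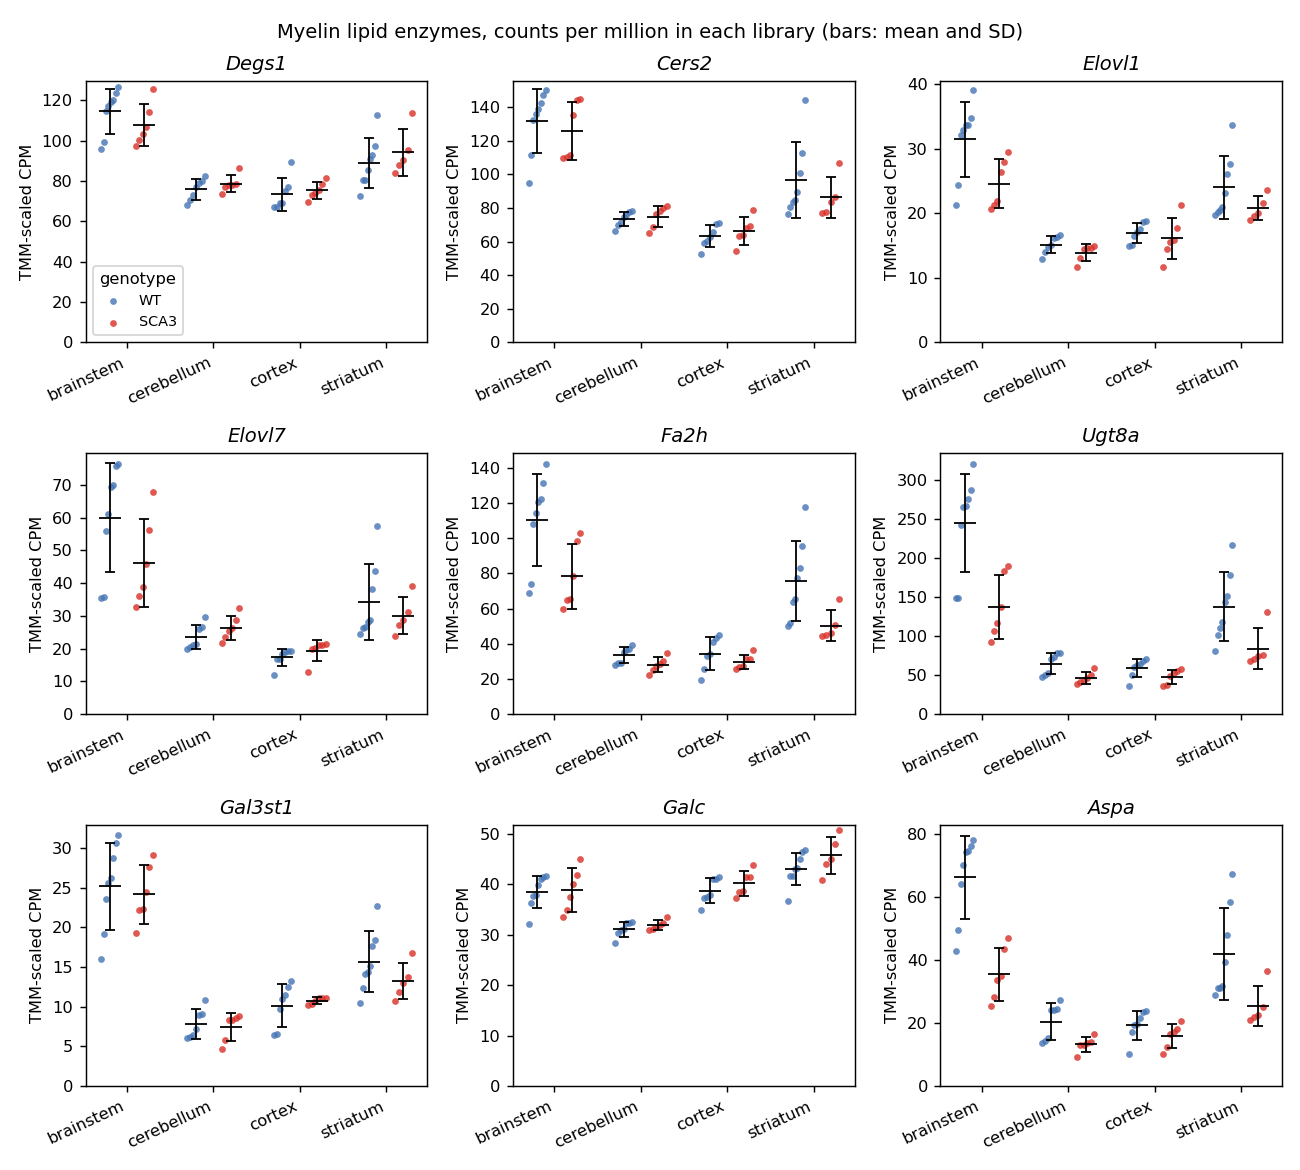
TMM-scaled CPM (vertical axis, from 0) of each enzyme in every library, by region and genotype (blue, wild-type, 8, 7, 7 and 8 libraries; red, SCA3, 6, 6, 6 and 5), with points ordered by value and black bars for mean and SD. In brainstem and striatum red points of Ugt8a and Aspa sit in the lower part of the blue range or below it. In cortex the ranges overlap more, with all 6 red points of Ugt8a and 5 of 6 of Aspa below the blue median. In striatum 1 red point of each lies apart from the other 4.

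Ugt8a encodes the ceramide galactosyltransferase, which attaches galactose to ceramide and so makes galactosylceramide. It lies on the minus strand at chr3:125865271-125938619 (GRCm38). In brainstem it ranged from 149 to 320 CPM in wild-type libraries, with a median of 266, and from 91.9 to 189 CPM in SCA3 libraries, with a median of 127. All 6 SCA3 libraries lay below the wild-type median and 4 of them below the lowest wild-type library, but the groups overlapped. The mean was 244 ± 62.9 CPM (SD, n = 8) against 137 ± 40.6 CPM (n = 6), a log2 fold change of -0.83 (SE 0.19, FDR = 0.0035 by the edgeR likelihood ratio test).

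RIN also differed between these brainstem groups. With only the brainstem libraries of a RIN of at least 7.4 (4 wild-type and 6 SCA3, a choice made after seeing the data) the Ugt8a difference was -0.80 with an FDR of 0.0578, and with RIN as a covariate in the brainstem libraries alone it was -0.54 with an FDR of 0.287. Over all alternatives tried the FDR of Ugt8a in brainstem ran from 8.55e-06 to 0.287. How RNA quality bears on this difference was not tested further. Of the 4 brainstem libraries with high thalamic sums, the wild-type pair had the lowest wild-type levels of Ugt8a and the SCA3 pair the lowest SCA3 levels, 91.9 and 106 CPM, and when the thalamic score entered the brainstem fit the Ugt8a difference was -0.82 (FDR = 8.55e-06).

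In striatum the 5 SCA3 libraries had 68.2, 70.0, 74.7, 75.4 and 130 CPM of Ugt8a. Wild-type libraries ran from 81.3 to 217 CPM with a median of 131. Therefore 4 SCA3 libraries lay below all wild-type libraries and the remaining one, from mouse 9082853, lay just below the wild-type median. This was a log2 fold change of -0.71 (SE 0.20, FDR = 0.0162). In cerebellum the range was 47.9 to 78.9 CPM in wild-type and 38.5 to 58.8 CPM in SCA3 (log2 fold change -0.48, SE 0.20, unadjusted p = 0.0172, FDR = 1). In cortex it was 36.2 to 70.8 against 36.3 to 57.4 CPM (-0.30, SE 0.20, FDR = 1).

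Aspa encodes aspartoacylase, the oligodendrocyte enzyme that splits N-acetylaspartate into aspartate and acetate and whose loss causes Canavan disease. It lies at chr11:73304992-73329596 on the minus strand, and the study had already named it on these samples, so its direction is no independent evidence. Brainstem levels ran from 42.7 to 77.9 CPM in wild-type (median 72.1) and from 25.4 to 46.8 CPM in SCA3 (median 34.2). Every SCA3 library lay below the wild-type median, 4 of 6 lay below the lowest wild-type library, and the groups overlapped. The means were 66.1 ± 13.2 (SD, n = 8) and 35.3 ± 8.35 CPM (n = 6), and the log2 fold change of -0.90 (SE 0.20, FDR = 0.00144) was the most negative of the 9. It was called in brainstem in every alternative, with an FDR between 2.26e-15 and 0.0418.

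The SCA3 striatal libraries had 20.8, 21.8, 22.45, 25.05 and 36.5 CPM of Aspa. Wild-type striatum ran from 28.7 to 67.1 CPM with a median of 35.5. Again 4 SCA3 libraries lay below all wild-type ones and that of mouse 9082853 did not. This was a log2 fold change of -0.73 (SE 0.21, FDR = 0.0175). In cerebellum the value was -0.63 (SE 0.21, unadjusted p = 0.00254, FDR = 0.981), with 13.5 to 27.2 CPM in wild-type and 9.06 to 16.5 CPM in SCA3. In cortex it was -0.29 (SE 0.21, FDR = 1).

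Fa2h encodes fatty acid 2-hydroxylase, which supplies the hydroxylated chains of galactosylceramide and sulfatide (chr8:111345135-111393824, minus strand). In striatum the SCA3 libraries had 44.2, 45.1, 46.1, 51.0 and 65.4 CPM, and the wild-type libraries 50.3 to 118 CPM with a median of 71.4. All 5 SCA3 values were below that median and 3 were below the lowest wild-type library. SCA3 was lower by a log2 fold change of -0.59 (SE 0.18, FDR = 0.0287). In brainstem Fa2h had 68.9 to 142 CPM in wild-type and 59.9 to 103 CPM in SCA3, a log2 fold change of -0.49 (SE 0.17) that did not pass (FDR = 0.13), though it did without wild-type mouse 7267055 (-0.57, FDR = 0.0322). Cerebellum (-0.25, SE 0.18) and cortex (-0.21, SE 0.18) had an FDR of 1.

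The striatal calls of all 3 genes rested on few libraries. Each was lost without any 1 of SCA3 mice 7267054, 7267056 and 9083515 or wild-type mouse 7267059, with an FDR between 0.0697 and 0.127, and Fa2h also without SCA3 mouse 9083514 (FDR = 0.0663). Wild-type mouse 7267059 had both the highest thalamic sum of the striatal libraries, 2405 CPM, and the highest Ugt8a (217 CPM), Aspa (67.1 CPM) and Fa2h (118 CPM). Leaving out the 3 wild-type striatal libraries whose thalamic sum exceeded that of the lowest brainstem library, a choice made after seeing the data, gave -0.49 for Ugt8a, -0.49 for Aspa and -0.44 for Fa2h with FDRs of 0.424, 0.424 and 0.425, from 5 libraries of each genotype. The 3 calls were also lost in striatal libraries fitted alone (FDR = 0.123 to 0.147), with libraries of a RIN of 7 or more (0.111 to 0.15) and in mice of the largest number series (0.51 to 0.619). How much of the striatal differences goes with the dissection was not tested further.

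Ugt8a and Aspa have unlike promoters, which is why both are printed, each from 250 bases before to 50 bases after the RefSeq start site on GRCm38.p6, 5′ to 3′ in the direction of the gene, with CG dinucleotides in capitals. Ugt8a is at chr3:125938603-125938902 and Aspa at chr11:73324588-73324887, both on the minus strand, and Galc, at chr12:98259410-98259709 on the minus strand, is shown as the member with the brainstem difference nearest to 0. The RefSeq start of Aspa lies inside the GENCODE extent of the gene given above, whose 5′ end is at 73329596, so the sources place its start differently.
Ugt8a: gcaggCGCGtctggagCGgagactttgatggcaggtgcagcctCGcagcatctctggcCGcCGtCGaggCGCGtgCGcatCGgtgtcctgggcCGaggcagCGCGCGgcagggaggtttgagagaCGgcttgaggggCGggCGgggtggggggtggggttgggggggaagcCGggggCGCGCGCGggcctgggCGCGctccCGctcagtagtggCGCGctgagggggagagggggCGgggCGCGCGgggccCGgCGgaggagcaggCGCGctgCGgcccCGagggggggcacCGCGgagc
Aspa: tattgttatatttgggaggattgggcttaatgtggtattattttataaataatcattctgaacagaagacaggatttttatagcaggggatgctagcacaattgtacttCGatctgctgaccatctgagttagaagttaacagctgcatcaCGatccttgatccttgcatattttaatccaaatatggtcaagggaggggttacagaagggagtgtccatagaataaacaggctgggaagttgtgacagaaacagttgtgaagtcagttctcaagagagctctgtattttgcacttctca
Galc: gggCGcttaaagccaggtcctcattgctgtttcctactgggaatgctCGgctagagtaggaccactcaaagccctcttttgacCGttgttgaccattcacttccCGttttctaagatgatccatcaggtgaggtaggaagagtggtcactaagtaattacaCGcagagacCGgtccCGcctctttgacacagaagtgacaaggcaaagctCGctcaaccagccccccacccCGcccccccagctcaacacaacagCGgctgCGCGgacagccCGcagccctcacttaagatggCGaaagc

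The Ugt8a window has 78.3% G and C and 40 CG dinucleotides, more CG than 96.1% of the 32851 RefSeq promoters of this length. The Aspa window has 39.0% G and C and 2 CG dinucleotides, where the median promoter has 52.7% and 7, and that of Galc has 55.7% and 14. Both strands were searched for ACAAAG and ACAATG, SOX-type motifs, and for the TATA-type motif TATAAA. None of the 3 was in the Ugt8a or Galc window. The Aspa window held TATAAA 3 times, starting at position -207 from the start site on its own strand and at -209 and -174 on the other strand, the first pair overlapping, and 13.6% of all promoters hold this motif. ACAATG, found in 12.6% of all promoters, occurred among the members in 2 of the 3 Gal3st1 promoters, which overlap each other, and ACAAAG (18.7% of all promoters) in none. A RefSeq promoter was matched for 8 of the 9 members. These matches describe letters only.

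Degs1 and Cers2 build the ceramide backbone. Degs1 (chr1:182275772-182282804, minus strand) encodes the desaturase of the last step of ceramide synthesis from scratch, and Cers2 (chr3:95314791-95323599, plus strand) the synthase that attaches very long fatty acids. Degs1 in brainstem was 95.8 to 126 CPM in wild-type and 97.1 to 126 CPM in SCA3 libraries. Cers2 in brainstem was 95.03 to 150 and 110 to 145 CPM. The ranges nearly coincided for both. The log2 fold changes of Degs1 were -0.09 (95% interval -0.24 to 0.07) in brainstem and 0.08 (-0.08 to 0.25) in striatum, and those of Cers2 were -0.06 (-0.28 to 0.15) and -0.16 (-0.39 to 0.06). In cerebellum and cortex both lay between 0.03 and 0.07. The striatal Cers2 value changed sign without the 3 thalamus-rich libraries (0.02).

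Elovl1 and Elovl7 elongate fatty acids to very long chains. Elovl1 (chr4:118428093-118432953, plus strand) had 21.2 to 39.2 CPM in wild-type and 20.7 to 29.5 CPM in SCA3 brainstem. All 6 SCA3 libraries were below the wild-type median of 33.3 CPM, yet only 1 was below the whole wild-type range. The log2 fold change of -0.35 (SE 0.12, FDR = 0.102) did not pass, but did without wild-type mouse 7267055 (-0.40, FDR = 0.0393) and without wild-type mouse 9083373 (-0.43, FDR = 0.0161), the same mice whose brainstem held the least structural myelin RNA among wild-types, 11620 and 10590 CPM summed, and the highest thalamic sums, 1059 and 1032 CPM. Elovl7 (chr13:108214404-108285683, plus strand) had 35.6 to 76.4 CPM in wild-type and 32.6 to 67.8 CPM in SCA3 brainstem (log2 fold change -0.38, SE 0.18, FDR = 0.33). It was -0.19 in striatum (SE 0.19, FDR = 0.579) and 0.16 in both cerebellum (SE 0.18) and cortex (SE 0.18), and neither of the positive values passed (FDR = 1).

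Gal3st1 encodes the sulfotransferase that turns galactosylceramide into sulfatide, the step directly after Ugt8a (chr11:3983636-3999326, plus strand). It had 16.0 to 31.6 CPM in wild-type and 19.3 to 29.2 CPM in SCA3 brainstem, with the SCA3 libraries inside the wild-type range. The log2 fold changes were -0.06 (95% interval -0.39 to 0.27) in brainstem, -0.08 (-0.42 to 0.26) in cerebellum, 0.08 (-0.26 to 0.42) in cortex and -0.25 (-0.59 to 0.10) in striatum. In cortex the 6 SCA3 libraries lay unusually close together, between 10.2 and 11.1 CPM, where the wild-type libraries spread from 6.39 to 13.3 CPM.

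Galc encodes galactosylceramidase, the lysosomal enzyme that removes galactose from galactosylceramide and is deficient in Krabbe disease (chr12:98202294-98259459, minus strand). Brainstem levels were 32.2 to 41.5 CPM in wild-type and 33.5 to 45.1 CPM in SCA3. The 2 ranges overlapped almost fully, and the values of SCA3 over wild-type, 0.01 in brainstem, 0.04 in cerebellum, 0.05 in cortex and 0.09 in striatum on the log2 scale, all had 95% intervals within -0.11 and 0.22. Reads of Galc could include those of the antisense gene Gm47439, which shares 325 exon bases with it, because counting did not use strand. The same holds on a smaller scale for Cers2, with 75 bases shared with Setdb1 and 34 with 6330562C20Rik, and for Elovl1, with 53 bases shared with Cdc20.

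None of the 9 members had genotypes without overlap in any region. Over all genes, groups without overlap made up 1.38% in brainstem, 0.234% in cerebellum, 0.251% in cortex and 0.655% in striatum.

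Ratios of the counts of 2 members within a library do not depend on how libraries are scaled, and in brainstem some of them separated the genotypes where the levels overlapped. All 36 pairs were compared in the 4 regions, 144 comparisons chosen after the member levels had been seen, with an exact two-sided permutation test of the difference in mean log2 ratio. The pairs share genes and are not independent, and the adjustment covers these 144 comparisons and not all genes. In brainstem 25 of 36 pairs had an unadjusted p below 0.05, where 19.0% did among pairs made of each gene of the table and the next. The numbers were 20 in cerebellum (4.86% of such pairs), 6 in cortex (4.01%) and 21 in striatum (13.9%). Neighbouring genes of the table were not matched to the members for how closely 2 genes vary together. The members did vary together, with a median correlation of 0.72 within groups, so the 2 kinds of share are not alike and their gap was not interpreted. After adjustment 23, 14, 4 and 18 pairs were called. Ugt8a and Aspa each differed in brainstem from all 7 other enzymes, and always in the direction of less Ugt8a or Aspa. These pairs in part restate the level differences of Ugt8a and Aspa, which had been seen first.

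Ugt8a and Gal3st1 make galactosylceramide and sulfatide in consecutive steps. Their ratio was 1 of several with the smallest possible p in brainstem. The log2 ratio of Ugt8a to Gal3st1 was 3.26 ± 0.24 in wild-type brainstem (SD, n = 8) and 2.47 ± 0.25 in SCA3 brainstem (n = 6), and all 6 SCA3 libraries lay below the lowest wild-type library. This was a difference of -0.79 (exact permutation p = 0.000333, the smallest that 8 against 6 libraries can give; adjusted p = 0.0048). In cerebellum it was -0.38 (exact p = 0.0128, adjusted 0.0393), in cortex -0.42 (exact p = 0.0239, adjusted 0.0573) and in striatum -0.47 (exact p = 0.00699, adjusted 0.0272). The cerebellar call was lost without any 1 of SCA3 mice 7267054, 9082853 and 9083513 and wild-type mice 7267055, 7267059, 9083371, 9083372, 9083373 and 9083375 (adjusted p-values of 0.0503 to 0.0752), and the striatal call without any 1 of SCA3 mice 7267054, 9083514 and 9083515 and wild-type mice 7267059 and 9082857 (0.0514 to 0.0671), without libraries of a RIN below 7 (0.129) and without the thalamus-rich libraries (0.106), whereas the brainstem call held in every alternative run for the ratios. The alternatives run for the ratios only left out libraries or mice. Neither RIN nor a marker score was entered as a covariate for them. The cortical difference passed without SCA3 mouse 7267056 (adjusted 0.0476) and without wild-type mouse 9083375 (adjusted 0.0397).

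Aspa fell against Galc by 0.92 in brainstem on the log2 scale, from 0.76 ± 0.23 (SD, n = 8) to -0.16 ± 0.22 (n = 6), again with no overlap of the groups (exact permutation p = 0.000333, adjusted 0.0048). The differences were -0.63 in cerebellum (adjusted 0.0417), -0.34 in cortex (adjusted 0.2325) and -0.78 in striatum (adjusted 0.0443). The cerebellar call was lost without any 1 of SCA3 mice 7267054, 7267056, 9082853 and 9083514 and wild-type mice 7267055, 7267059, 9082857, 9083372 and 9083373 (adjusted up to 0.0691). The striatal call was lost without any 1 of SCA3 mice 7267054, 7267056, 9083514 and 9083515 and wild-type mice 7267058, 7267059, 9082857, 9083371 and 9083372 (up to 0.0853), without libraries of a RIN below 7 (0.121) and without the thalamus-rich libraries (0.0762). Wild-type mouse 7267058 left out gave a call in cortex (adjusted 0.0354). Gal3st1 rose against Fa2h by 0.44 in brainstem (exact permutation p = 0.000333, adjusted 0.0048), 0.30 in cortex (adjusted 0.0264) and 0.32 in striatum (adjusted 0.0134), and the cerebellar value of 0.17 was not called (adjusted 0.261). The cortical call was lost without SCA3 mouse 7267054 (adjusted 0.0514) and the striatal call when libraries of a RIN below 7 were left out (adjusted 0.056). Ugt8a and Aspa kept nearly the same ratio to each other. Their log2 ratio in brainstem was 1.86 ± 0.15 in wild-type and 1.94 ± 0.12 in SCA3, and the differences in the 4 regions were 0.08, 0.13, -0.01 and -0.01 (two-sided exact permutation, p = 0.334, 0.168, 0.935 and 0.913). With the brainstem libraries of a RIN of at least 7.4 the brainstem differences were -0.63 for Ugt8a to Gal3st1 and -0.93 for Aspa to Galc, with adjusted p-values of 0.0264 and 0.0264.

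**Figure D4:**
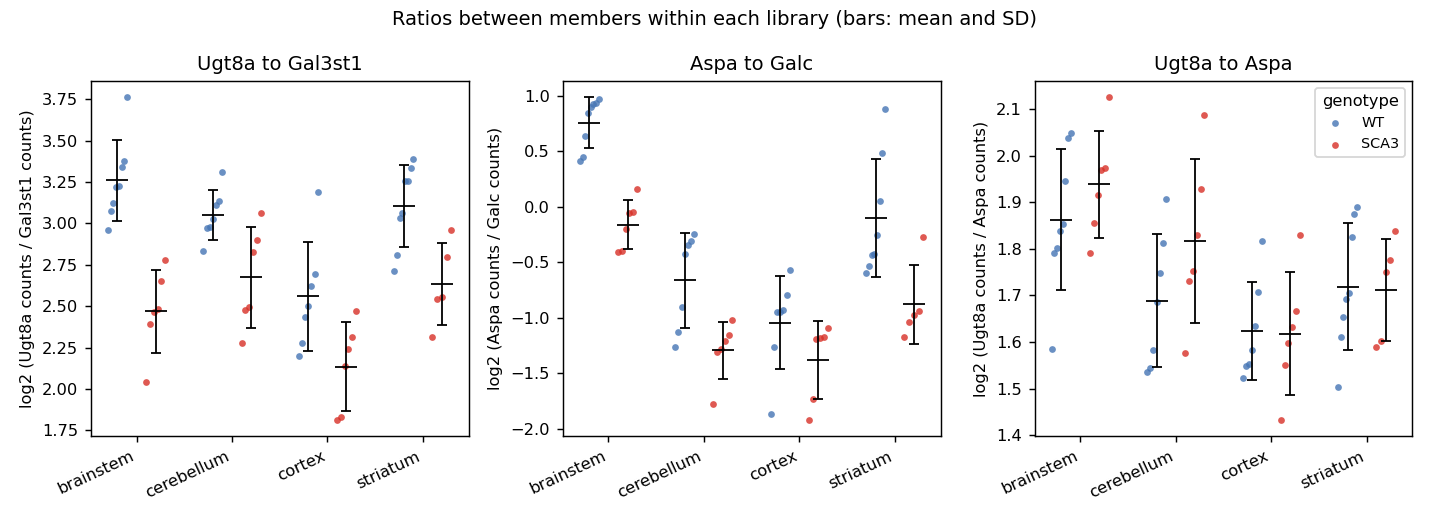
Log2 ratio of the counts of 2 enzymes (vertical axis) in each library, by region and genotype (blue, wild-type; red, SCA3), with black bars for mean and SD over 5 to 8 libraries. The ratios of Ugt8a to Gal3st1 and of Aspa to Galc do not overlap between genotypes in brainstem, where they differ by -0.79 and -0.92, while that of Ugt8a to Aspa differs by 0.08.

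The structural genes of myelin were also uneven in size of change. All 10 had negative values in brainstem and in striatum, with a median log2 fold change of -0.39 in each. In cerebellum 6 were negative and in cortex 5. Mal, which encodes a myelin raft protein, was lower in SCA3 with a log2 fold change of -0.65 in brainstem (SE 0.18, FDR = 0.0248) and -0.80 in striatum (SE 0.19, FDR = 0.00333). Mobp and Cldn11 were called lower in striatum (-0.81 and -0.67), and in brainstem had values of -0.67 and -0.57 with FDRs of 0.0525 and 0.0575. Mal had been named by the study on these samples, as Aspa had. Mag, Mog, Cnp and Opalin, markers of the same cells, had the brainstem values nearest to 0, at -0.04, -0.05, -0.03 and 0.00. In striatum they had -0.22, -0.11, -0.24 and -0.29, and none of these values was called. Ermn had -0.51 in brainstem (FDR = 0.219) and -0.17 in striatum, also not called. In all, 2 of the 10 were called in brainstem, 4 in striatum and 0 in cerebellum and cortex, each lower in SCA3. The summed level of the 10 ran from 10590 to 21960 CPM in wild-type and from 9654 to 16230 CPM in SCA3 brainstem, and from 6809 to 19860 and from 6271 to 9550 CPM in striatum.

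When the structural myelin score entered the brainstem fit as a covariate, Aspa differed by -0.59 (FDR = 2.26e-15) and Ugt8a by -0.44 (FDR = 5.44e-05), while Fa2h differed by -0.17 (FDR = 0.323). In cerebellum the same covariate gave -0.42 for Aspa (FDR = 0.000379) and -0.34 for Ugt8a (FDR = 0.000136), where the fit without it made no call. In striatum it gave -0.33 for Aspa (FDR = 0.00336) and -0.35 for Ugt8a (FDR = 0.0716), and Degs1 was called higher there, at 0.23 (FDR = 0.0483). The score itself holds genes that were lower in SCA3, so these values are differences relative to it.

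**Figure D5:**
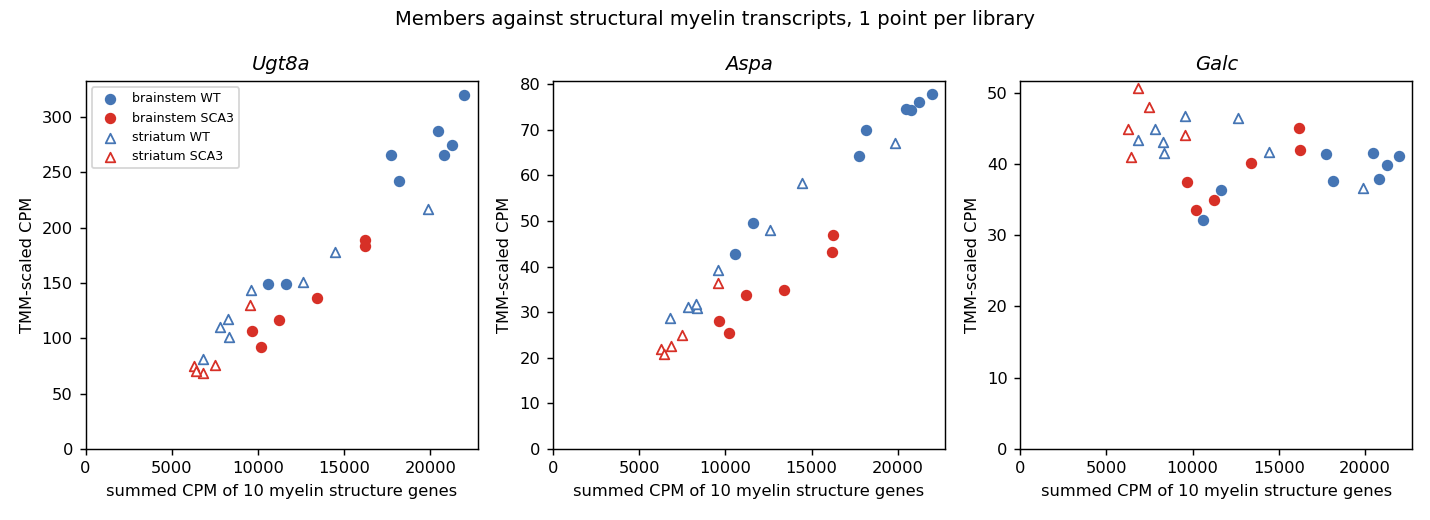
TMM-scaled CPM of Ugt8a, Aspa and Galc (vertical axes) against the summed CPM of 10 structural myelin genes (horizontal axis), 1 point per library of brainstem (circles) and striatum (triangles), wild-type in blue and SCA3 in red. Ugt8a and Aspa rise with the sum, with SCA3 brainstem libraries below wild-type brainstem libraries at a similar sum, and over both regions together Galc shows no such rise, although its 2 lowest brainstem values, 32.2 and 33.5 CPM, belong to libraries with low sums of 10590 and 10200 CPM.

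Other cell types were read from their markers. Of 6 astrocyte markers 2 were called lower in brainstem (Slc1a2 and Gja1) and 2 in striatum (Aldh1l1 and Gja1), and their summed level ran from 2882 to 6873 CPM in wild-type and from 2411 to 3755 CPM in SCA3 brainstem. P2ry12 was the 1 of 5 microglial markers called, lower in brainstem. None of 5 oligodendrocyte precursor markers, 4 endothelial markers, 4 neuronal markers, 7 striatal projection neuron markers or the 3 choroid plexus markers found of 4 was called in any region by edgeR. Precursor markers summed to 135 to 234 CPM in wild-type and 147 to 220 CPM in SCA3 brainstem. The part of these shifts in the enzymes' values was not tested.

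The wider pathway was represented by 67 of 70 listed genes. None was called higher in any region, 2 were called lower in brainstem, 8 in striatum, and 0 in cerebellum and cortex. Over the whole list these shares lie near those of all genes (1.92% in brainstem and 7.54% in striatum). In brainstem the calls were Scd2 (log2 fold change -0.35, SE 0.09, FDR = 0.00792) and Fads1 (-0.25, SE 0.07, FDR = 0.0131), both fatty acid desaturases, and both were also lower in striatum (-0.32 and -0.31). The other striatal calls were Fads2 (-0.42), a further desaturase, Tecr (-0.23), a reductase of fatty acid elongation, Acss1 (-0.31), a mitochondrial acetyl-CoA synthetase, B4galt5 (-0.29), which makes lactosylceramide, Cerk (-0.49), the ceramide kinase, and Sptssb (-1.33), a small subunit of serine palmitoyltransferase. By group, the calls were 2 of 15 genes of fatty acid synthesis and elongation in brainstem and 4 of 15 in striatum. Of the 11 ceramide backbone genes 1 was called, of 8 genes of other head groups 2, and of 6 genes of N-acetylaspartate and acetate handling 1, all in striatum. The 17 breakdown genes, 5 of very long chain oxidation and 5 of plasmalogen synthesis had 0 calls. The thalamic sums given above moved with the striatal calls, and their part in them was not tested. The median log2 fold change of the 67 was -0.01 in brainstem and -0.08 in striatum.

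Within groups, the enzymes varied together from library to library. After the mean of its region and genotype was taken from each library, Pearson's r between 2 members over the 53 libraries ranged from 0.20 to 0.94 with a median of 0.72, and 27 of 36 pairs were above 0.5. The closest pair was Ugt8a and Aspa (0.94), and the 8 pairs with Galc were among the 9 lowest, at 0.44 or less. These libraries share mice and dissections, and the r is given as a description. Against the mean of the 10 structural myelin genes Aspa had an r of 0.96, Ugt8a 0.92, Cers2 0.90, Fa2h 0.89, Gal3st1 0.80, Elovl1 0.79, Elovl7 0.74, Degs1 0.63 and Galc 0.15. Against the mean of the 6 astrocyte markers Degs1 had 0.67, Cers2 0.65, Elovl7 0.55, Ugt8a 0.50, Elovl1 0.45, Aspa 0.41, Fa2h 0.29, Galc 0.21 and Gal3st1 0.17, so that Degs1 followed both sets about alike. Galc had an r of -0.43 with the 9 thalamic markers and -0.42 with the 4 neuronal markers, where the other members lay between 0.01 and 0.38 and between -0.40 and 0.08. With RIN, taken as a difference from the group mean in the same way, the 9 values lay between -0.17 and 0.15.

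Likeness to genes outside the 9 was measured by the same r over the 53 libraries. The genes most like Ugt8a included Ermn (0.98) and Svip (0.94), those most like Aspa were Cldn11 (0.95), Ermn (0.95) and Gatm (0.95), and those most like Fa2h were Tmem63a (0.95), Nipal4 (0.95) and Gjb1 (0.94). Gal3st1 had Gjb1 (0.90), which encodes a gap junction protein, and Prr18 (0.90). Cers2 had Nde1 (0.93) and Ndrg1 (0.92). Elovl7 had Cyp27a1 (0.88), Syne3 (0.88) and Stxbp3 (0.86), Elovl1 had Rffl (0.85), Tmprss5 (0.85) and Sec14l5 (0.84), and Degs1 had Klhl4 (0.88), Pla2g16 (0.86) and Lamp2 (0.85). Galc stood apart, with Sgk3 (0.73), Sv2c (0.73) and Clk4 (0.72).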

How the data were processed

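Raw counts per gene for 53 poly-A libraries of 14 mice were used as the authors deposited them. The submitters' processing notes name bcl2fastq 1.8, FastQC 0.11.2, cutadapt 1.10, STAR 2.3.0e, HTSeq 0.6.1, edgeR 3.14.0 and the mouse build GRCm38 (mm10), and the authors counted reads without strand and kept genes averaging above 4 CPM. Reads of genes that overlap on opposite strands can therefore not be told apart.

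One fit over the 8 region and genotype groups was made with edgeR 4.0.16 in R 4.3.3, using TMM factors and the likelihood ratio test that the study's methods give, with Benjamini-Hochberg adjustment over all 12372 genes and an FDR below 0.05 as the call. The combined and region dependence tests used the interaction of region and genotype. CPM values were scaled by TMM, and log2 CPM used a prior count of 2. The script was tested on simulated data first. Levels per kilobase used merged exons of protein-coding transcripts of GENCODE vM21, while the counts were made on RefSeq. Ratio tests were exact two-sided permutation tests of the absolute difference in means, written in Python 3.11.15 with numpy 2.4.6 and pandas 2.3.3, and figures used matplotlib 3.10.9. Intervals are 95%, come from the SE of the model and are for a difference in means. They use the dispersion of each gene shared over all regions, and treat libraries of the same mouse as independent.

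Groups came from the labels, which also give the mouse of each library. Libraries of 1 mouse are paired across regions, and within a region each mouse gave 1 library, so the mouse pairs no wild-type with an SCA3 animal. The correlation within mice was 0.14 in the blocked limma 3.58.1 fit. Alternatives were DESeq2 1.42.0, the quasi-likelihood F test, limma-voom with and without the mouse block, RLE factors, a count minimum of 10, RIN and marker scores as covariates, single regions, libraries of a RIN of at least 7, mice of the largest number series and each mouse left out. The 9 members were named in all regions, with at most 8 other pathway genes called in any region, smallest FDR first, and the 3 genes most like each member. Some genes that this rule names are not reported here. The members and lists were chosen with earlier results of these data known, and the ratio tests and a further pair of library selections (brainstem RIN of at least 7.4, and striatum without thalamus-rich libraries) after seeing values.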

Additional observations from a re-analysis of the deposited data

Results flagged for a closer look

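In 4 of 72 groups of member levels 1 library lay far from the others, where chance alone sets 1 apart in about 1 group of 20. SCA3 mouse 9082853 had 130.4 CPM of Ugt8a in striatum, where the other SCA3 libraries had 68.2 to 75.4 CPM, and 36.48 CPM of Aspa, where the others had 20.82 to 25.05 CPM. The same mouse had 12.77 CPM of Elovl7 in cortex against 19.84 to 21.52 CPM in the other SCA3 libraries. Wild-type mouse 7267058 had 11.91 CPM of Elovl7 in cortex against 16.73 to 19.34 CPM in the other wild-type libraries. The summed structural myelin level of mouse 9082853 in striatum was 9550 CPM and its thalamic sum 417.9 CPM, both the highest of the SCA3 libraries there. In cortex mice 9082853 and 7267058 had the lowest structural myelin sums of their genotypes, 2922 and 2692 CPM.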

How the results depend on the processing

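Of 3680 values recomputed under alternatives, 3473 were counted as the same. For a fold change or ratio this meant the same direction and call, and for a test without direction the same call. Numbers of calls had to lie within a set factor and mean levels within the SD. The 3680 include the wild-type region contrasts and values never called. There were 39 changes of sign, none of them called in either fit. In brainstem 1 member was called with a brainstem RIN of at least 7.4 and 1 in brainstem libraries alone with RIN as a covariate, against 2 in the fit reported, and 4 with the thalamic score. In cerebellum 2 were called with the structural myelin score and 2 with the thalamic score, against 0. In striatum 0 of 3 calls were left in striatal libraries alone, alone with RIN, alone with the thalamic score, with a RIN of at least 7, in mice of the largest number series and without the thalamus-rich libraries. The shares of all genes called in these fits are not given here, so the counts say little about these enzymes in particular. The cause of these changes was not tested. With the mouse as a replicate block in limma-voom the calls were 2, 0, 0 and 2 in brainstem, cerebellum, cortex and striatum and 2 in the combined test, the same as without the block; Fa2h was lost in striatum (FDR 0.0594) and in the combined test (FDR 0.14). The Galc mean in SCA3 cerebellum was 33.01 CPM with plain totals. Ratio calls in striatum numbered 9 with a RIN of at least 7 and 10 without the thalamus-rich libraries, against 18. Leaving out 1 mouse gave 2 to 4 calls in brainstem, 0 in cerebellum and cortex, 0 to 3 in striatum and 2 to 4 in the combined test, and between wild-type cerebellum and cortex 2 to 3, and ratio calls of 19 to 25 in brainstem, 4 to 17 in cerebellum, 1 to 8 in cortex and 11 to 20 in striatum. Sign changes with the structural myelin score were Gal3st1 0.1805, Cers2 0.1453, Degs1 0.0454 and Elovl7 0.0332 in brainstem, Gal3st1 0.0591 in cerebellum, and Gal3st1 0.0128, Cers2 0.0827 and Elovl7 0.1679 in striatum. With RIN in the region alone they were Cers2 0.0744 and Degs1 0.0219 in brainstem and Gal3st1 -0.0076 in cortex. In striatum Cers2 became 0.0352 and Elovl7 0.0742 with the thalamic score, and 0.0192 and 0.0442 without the thalamus-rich libraries. In the largest number series Galc was -0.0067 in brainstem, and Gal3st1 -0.0319 and Elovl1 0.0392 in cortex. The striatal ratio of Ugt8a to Aspa was 0.01861 with a RIN of at least 7. Without 1 mouse, the range was -0.04 to 0.0454 for Galc in brainstem, -0.1378 to 0.0284 for Gal3st1 in cerebellum, -0.004 to 0.156 for Gal3st1 and -0.1673 to 0.0045 for Elovl1 in cortex, -0.0305 to 0.0117 for Galc between wild-type brainstem and cortex, -0.1467 to 0.0381 for Fa2h and -0.0298 to 0.2004 for Aspa between wild-type cerebellum and cortex, and -0.04773 to 0.03153 in cortex and -0.03962 to 0.02243 in striatum for the ratio of Ugt8a to Aspa.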
